A study of Homo sapiens with 2 samples.

Results

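The proteasome is the protease complex that degrades ubiquitin-tagged proteins, and its subunits are encoded by the PSM gene families. Members were taken as the protein-coding genes of GENCODE release 44 named PSMA to PSMG followed by a number, matched by Ensembl identifier to both count tables. This gave 48 of 58735 genes: 8 core alpha genes, 8 core beta genes, 3 immunoproteasome genes, 6 base ATPases, 14 non-ATPase regulatory genes, 5 activator or inhibitor genes and 4 assembly chaperones. The rule uses gene names and types and no measured value, but it was set with earlier results of these data known.

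One Nanopore direct RNA library and one Illumina TruSeq stranded mRNA library were made from matched polyA RNA of MCF10a-Snail-ER cells. MCF10a is a non-tumorigenic human mammary epithelial line, and this derivative carries the repressor Snail fused to the estrogen receptor, so that tamoxifen can activate it. Both libraries came from cells given 100 nM tamoxifen for 1 day, in medium with horse serum, EGF, hydrocortisone, cholera toxin and insulin. No untreated library was analysed here, so the values compare 2 libraries of the same treated cells and not a response to tamoxifen. With 1 library per platform there is no replicate, and each test and interval covers counting error only.

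In the proteasome, rings of alpha subunits close both ends of a barrel and rings of beta subunits form its inside, where PSMB5, PSMB6 and PSMB7 carry the active sites. A regulatory particle on the barrel's end recognises ubiquitin chains, unfolds the substrate with a ring of ATPases and passes it into the core. Interferon-gamma induces PSMB8, PSMB9 and PSMB10, which replace PSMB5, PSMB6 and PSMB7 to form the immunoproteasome, known for making peptides for antigen presentation.

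Depth differed widely, with 403235 counts in all by Nanopore and 191741714 by Illumina. Levels are given as CPM, a gene's counts scaled to a library of 1000000, and a single Nanopore count was worth 2.48 CPM. The level below which a gene could be missed was taken as 3 counts, which is 7.44 CPM for Nanopore and 0.0156 CPM for Illumina. All 12 basal mammary epithelial markers examined were detected in both libraries, KRT5 with 680 Nanopore and 277508 Illumina counts. Nanopore counts were found for 1 of 5 leukocyte markers (CD14, 5 counts, and 2100 by Illumina), 2 of 5 fibroblast markers (DCN with 10 and 5075 counts, COL1A2 with 1 and 148) and 1 of 4 endothelial markers (KDR with 1 and 278). Illumina counts were found for 4 of the 5 leukocyte, all 5 fibroblast and all 4 endothelial markers. PECAM1 had 973 (5.07 CPM) and COL1A1 946 (4.93 CPM), both with 0 by Nanopore and under its 3-count level. Of 4 luminal markers 3 were detected in both libraries, KRT8 with 157 and 40083 counts, KRT18 with 113 and 61710 and GATA3 with 4 and 2479, while PGR had 0 in both.

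The 3 catalytic pairs are shown first as sequence, because comparing an immunoproteasome gene with the gene it replaces rests on reads that tell them apart. Each line is the 60-base stretch of the coding sequence where the pair is most alike, 5′ to 3′ on the gene's strand, from GENCODE 44 transcripts on hg38, and capitals mark the bases that differ between the 2 genes. All of these stretches cross an exon junction.
PSMB8: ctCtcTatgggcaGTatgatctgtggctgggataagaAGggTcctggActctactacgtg
PSMB5: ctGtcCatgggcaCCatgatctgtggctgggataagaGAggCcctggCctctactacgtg
PSMB9: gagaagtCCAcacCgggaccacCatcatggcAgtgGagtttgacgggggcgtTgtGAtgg
PSMB6: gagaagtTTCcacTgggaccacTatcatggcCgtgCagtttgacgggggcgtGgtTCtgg
PSMB10: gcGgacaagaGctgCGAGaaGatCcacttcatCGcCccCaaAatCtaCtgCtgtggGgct
PSMB7: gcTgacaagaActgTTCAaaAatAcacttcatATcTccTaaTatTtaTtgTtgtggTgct
PSMB8 and PSMB5 were identical at 52 of these 60 positions, PSMB9 and PSMB6 at 50, and PSMB10 and PSMB7 at 43. Over the whole aligned coding sequences the identities were 63.1%, 64.7% and 62.5%, and the longest identical runs were 22, 16 and 14 bases. Among words of the Ensembl canonical transcript, none of these 6 genes, PSMB10 excepted, shared a 50-base word with another annotated gene. Over all annotated exons PSMB8 shared 602 bases with PSMB8-AS1 on the opposite strand. PSMB9 shared 174 with PSMB8-AS1 on the same strand. PSMB8-AS1 had 2 Nanopore and 1128 Illumina counts. PSMB10 shared 48.6% of its words with ENSG00000261884, a protein-coding gene that overlaps its exons.

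A second set of sequences is shown because 5 proteasome promoters held the same 10 letters. Promoter windows of 250 bases before to 50 after the start came from RefSeq (GRCh38.p14), where 42 of the 48 genes matched, with 51 windows. GAAA followed by any 2 bases and again by GAAA, which resembles the element bound by interferon regulatory factors, was searched on both strands and occurred in 7 of the 51 windows (13.7%) and in 3.57% of all 35116 windows. The commonest exact form in these windows, GAAAGCGAAA, was noticed after the search, and each of its matches is also a match of the wider motif. It occurred in 5 of the 51 (9.80%) and in 35 of all windows (0.0997%). Capitals mark it, read as its complement where the match was on the opposite strand.
PSMB8, chr6:32844030-32844063, minus strand: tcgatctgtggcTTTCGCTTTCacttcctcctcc
PSMB10, chr16:67936850-67936883, minus strand: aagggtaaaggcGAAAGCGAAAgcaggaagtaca
PSME1, chr14:24136187-24136220, plus strand: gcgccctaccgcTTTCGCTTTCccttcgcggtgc
PSME2, chr14:24146617-24146650, minus strand: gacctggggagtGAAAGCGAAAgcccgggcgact
PSMG4, chr6:3258902-3258935, plus strand: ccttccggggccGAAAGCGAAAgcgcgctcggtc
The 5 genes are 2 immunoproteasome genes, the 2 subunits of the interferon-inducible activator ring and an assembly chaperone. The window of PSMB9, the remaining immunoproteasome gene, held neither this form nor the wider motif, and nor did the other PSMB8 window. The exact form was picked for its frequency in these windows, so its 2 shares are not an independent comparison. PSMA4 and PSMB4 held other forms of the wider motif. TGACNNNGC, which resembles the antioxidant response element, was in 15 windows (29.4%, against 13.3% of all), and CCAAT in 20 (39.2%, against 34.6%). These matches are descriptions of letters and no binding was measured.

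Proteasome genes took a smaller part of the Nanopore counts than of the Illumina counts. They held 1947 Nanopore counts, 0.483% of the library (95% Wilson interval 0.462 to 0.505%), and 1519827 Illumina counts, 0.793% (0.791 to 0.794%). The base ATPases held 0.0461% by Nanopore and 0.102% by Illumina, while the core alpha genes held 0.124% and 0.152%. Each gene's pair of counts was compared by an exact binomial test (two-sided) that takes the library totals as given. Its p was adjusted by the Benjamini-Hochberg method over the 12414 genes whose mean level reached 5 CPM. Of the 48 members 46 passed that minimum. None of the 46 was called higher by Nanopore at an adjusted p under 0.05, where 20.2% of all tested genes were. At an unadjusted p under 0.05 none of the 46 was higher by Nanopore either, against 2660 of the 12414 tested genes. By Illumina 26 were called higher at the adjusted p, against 27.2% of all tested genes. At a difference of 4-fold or more the counts were 0 by Nanopore, against 12.9% of all, and 2 by Illumina, PSMB8 and PSME4, against 7.31% of all. Members are protein-coding by rule, and among all tested protein-coding genes the corresponding shares were 11.8% and 30.9%, and at 4-fold 4.74% and 7.73%.

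Ratios are log2 values of Nanopore over Illumina, with 1 CPM added to each side, so a value below 0 is higher by Illumina. The 46 tested members had a median of -0.50, against -0.42 for all tested genes and -0.58 for all tested protein-coding genes, and 41 lay below 0. Of the members 33 of 46 (71.7%) lay within 2-fold, against 50.5% of all tested genes and 56.1% of the protein-coding ones. The other 49.5% of all tested genes differed by 2-fold or more. The tested members had a median of 40 Nanopore counts, against 9 for all tested genes and 10 for the protein-coding ones. Fewer counts give wider counting error in the ratio and less power to call a difference. No set of genes of like level or transcript length was compared. Of the 26 calls by Illumina, those of PSMA2, PSMD7 and PSMG3 were lost with TMM scaling, and these and those of PSMB2, PSMB7, PSME2 and PSMF1 with median-ratio scaling. Across the 46 genes the Nanopore and Illumina CPM had a Spearman correlation of 0.84, a description over genes that share 2 libraries.

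**Figure D1:**
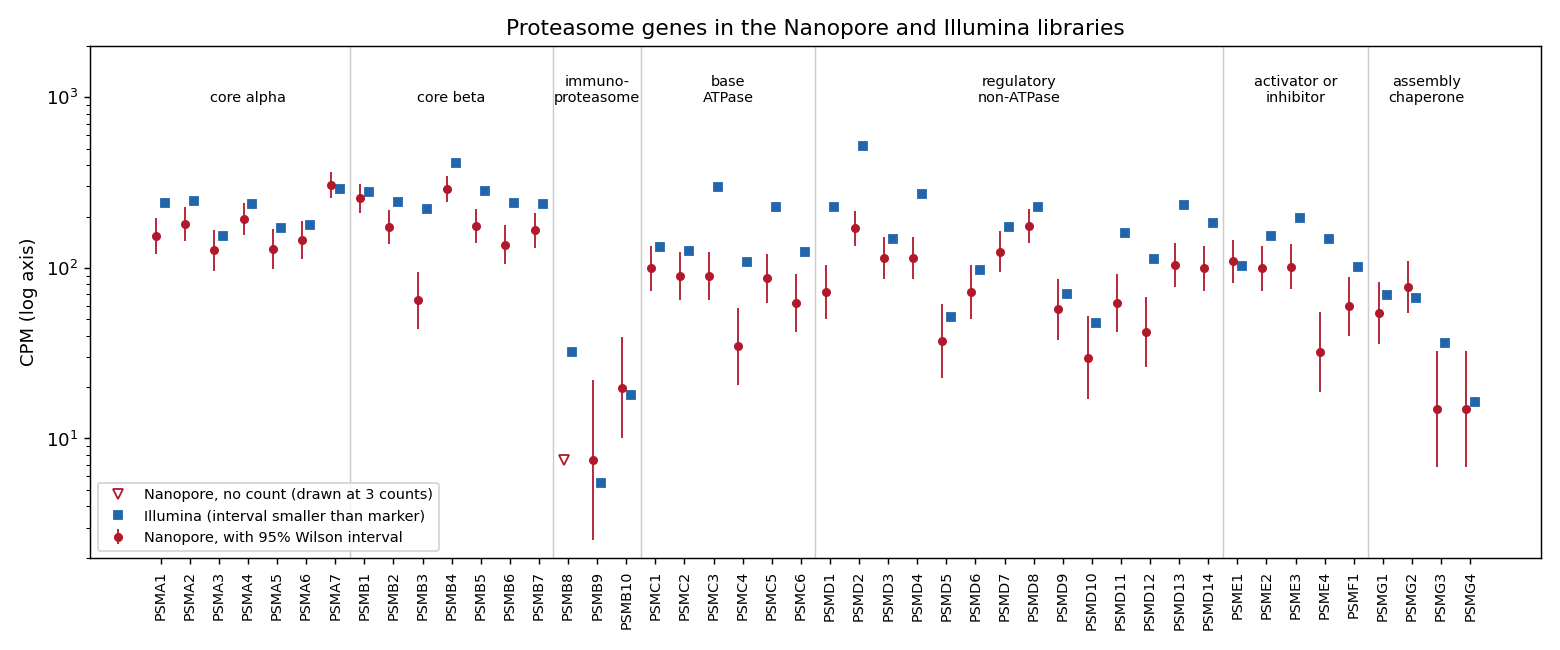
CPM (log axis) of the 46 tested proteasome genes in each library, by role; circles are Nanopore with 95% Wilson intervals, squares are Illumina, and the open triangle marks PSMB8, with 0 Nanopore counts, at the level of 3 counts. The Illumina square lies above the circle for 41 of the 46 genes, furthest for PSMB8 and PSME4.

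The alpha genes, which form the outer rings and the gate of the core, had a median log2 ratio of -0.29. All 7 tested alpha genes lay within 2-fold. PSMA7 had 124 Nanopore counts (308 CPM, 258 to 367) and 55675 Illumina counts (290.4 CPM), a log2 ratio of 0.08, and had the most Nanopore counts of all members, with an interval that overlapped those of PSMB1 and PSMB4. PSMA3 and PSMA5 had the fewest Nanopore counts of the 7, with 51 (126 CPM, 96.2 to 166) and 52 (129 CPM, 98.3 to 169), which did not differ beyond counting error, and 29394 and 32679 by Illumina. PSMA1 and PSMA2 were called higher by Illumina. For PSMA1 there were 62 counts by Nanopore and 46318 by Illumina (log2 ratio -0.65, exact test adjusted p = 0.000604), and PSMA2 had 73 and 47249 (-0.44, adjusted p = 0.0171 by the same exact test). The PSMA2 call was lost with TMM (exact test adjusted p = 0.0695) and median-ratio scaling (0.119), and turned to higher by Nanopore with Illumina TPM (counts per transcript length) by union exonic length (1.17) and by mean transcript length (0.53). The other alpha genes, PSMA4, PSMA5 and PSMA6, had log2 ratios from -0.40 to -0.29 and were not called. PSMA8, a testis-specific alpha gene, had 1 Nanopore and 0 Illumina counts and was not tested.

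Among the beta genes 6 of 7 tested were called higher by Illumina, all but PSMB1, with a median log2 ratio of -0.51. PSMB1 had 103 Nanopore counts (255 CPM, 211 to 310) and 53380 Illumina counts (278 CPM), a ratio of -0.12. PSMB4 was the highest beta gene in both libraries, with 117 Nanopore counts (290.2 CPM) and 78790 Illumina counts (411 CPM). The catalytic genes lay close together by Nanopore. PSMB5, which cuts after hydrophobic residues, had 71 Nanopore and 54413 Illumina counts (log2 ratio -0.69). PSMB6, which cuts after acidic residues, had 55 and 46323 (-0.82), and PSMB7, which cuts after basic residues, had 67 and 45377 (-0.51). The Nanopore intervals of the 3 overlapped, 140 to 222, 105 to 177 and 131 to 211 CPM.

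PSMB3, a structural beta subunit, stood apart from the other beta genes. It had 26 Nanopore counts (64.5 CPM, 44 to 94.5) and 42579 Illumina counts (222 CPM), a log2 ratio of -1.77 with an exact test adjusted p of 5.35e-14. Its Nanopore interval lay below those of the 6 other constitutive beta genes, while its Illumina CPM lay close to that of PSMB7. PSMB3 lies at chr17:38752741-38764225 and its transcript also aligned to 1 alternate contig of chromosome 17 in hg38. PSMB11, the thymus-specific beta gene, had 0 counts in both libraries, which allows it the 3-count levels given above and no more.

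The immunoproteasome genes were rare beside the subunits they replace. PSMB8 had 0 Nanopore counts, with a 3-count level of 7.44 CPM and a 95% Wilson upper limit of 9.53 CPM, and 6168 Illumina counts (32.2 CPM). Against the 3-count level PSMB8 was at least 4.32-fold lower by Nanopore (exact test adjusted p = 2.21e-05). The 95% exact interval of the Nanopore to Illumina ratio reached 0.284, which does not exclude a difference of less than 4-fold. PSMB9 had 3 Nanopore counts (7.44 CPM, 2.53 to 21.9) and 1047 Illumina counts (5.46 CPM), and PSMB10 had 8 (19.8 CPM, 10.1 to 39.2) and 3469 (18.1 CPM). The last 2 were not called, with log2 ratios of 0.39 and 0.13. Per canonical transcript length, Illumina gave PSMB8 44.4, PSMB10 28.7 and PSMB9 8.32 TPM, but by union exonic or mean transcript length PSMB10 (30.1 or 27.7 TPM) lay above PSMB8 (25 or 24.7 TPM). Nanopore listed PSMB10 highest and PSMB8 at 0.

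Shares within a pair need no scaling between the libraries. PSMB8 made up 0% of the Nanopore counts of PSMB8 and PSMB5 (exact Clopper-Pearson interval 0 to 5.06%), where 3 of 71 counts would be 4.23%. By Illumina it made up 10.2% of the counts, and 9.53%, 4.8% and 5.73% per canonical, union exonic and mean transcript length. At the Illumina share of counts, 7.23 of the Nanopore counts of that pair would have been PSMB8. PSMB9 made up 5.17% of its pair with PSMB6 by Nanopore (1.08 to 14.4%) and 2.21% by Illumina (1.80% per canonical length, 0.970% by union and 1.39% by mean length). PSMB10 made up 10.7% of its pair with PSMB7 by Nanopore (4.72 to 19.9%) and 7.10% by Illumina (7.15%, 7.75% and 6.09% by the 3 lengths), and the exons of PSMB10 overlap ENSG00000261884, which had 10 Nanopore counts against 8. The Illumina share lay inside the Nanopore interval for PSMB10 at each length. For PSMB8 it lay outside by counts, canonical and mean length and inside by union length, and for PSMB9 inside except by union length. Over the 3 pairs together the share was 5.39% by Nanopore (2.72 to 9.44%) and 6.81% by Illumina (6.12%, 4.36% and 4.47% per canonical, union and mean length).

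**Figure D2:**
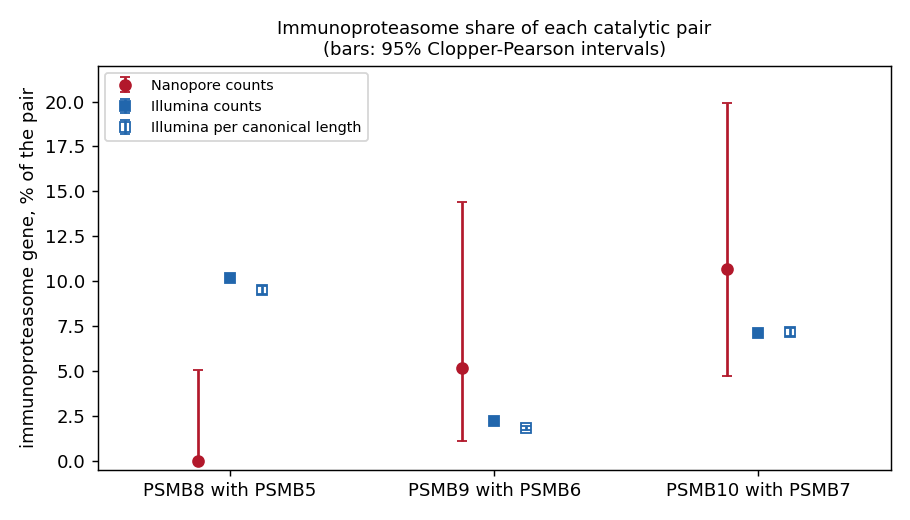
Share of each catalytic pair (percent of the pair's counts) held by the immunoproteasome gene; circles are Nanopore counts, filled squares Illumina counts and open squares Illumina counts per canonical transcript length, with 95% Clopper-Pearson intervals. For PSMB8 with PSMB5 the Nanopore interval ends at 5.06%, below the Illumina share of 10.2% by counts and 9.53% by canonical length; by union length, not drawn, it is 4.8%.

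PSMB8 (chr6:32840717-32844679) and PSMB9 (chr6:32844136-32859851) lie on opposite strands with 139 shared exonic bases in the major histocompatibility complex, a region that hg38 also carries on alternate contigs, and the transcript of each aligned to 7 of them. Their tested protein-coding neighbours within 100000 bases were TAP1, TAP2 and ENSG00000250264, and all 3 were 4-fold higher by Illumina. TAP1, a subunit of the peptide transporter of antigen presentation, had 2 Nanopore and 4391 Illumina counts, and TAP2, the other subunit, had 2 and 17617. Among tested genes of chromosome 6, 70 of 107 with an alternate-contig copy (65.4%) were 4-fold higher by Illumina, against 19 of 505 without one (3.76%), with medians of -2.96 and -0.35. On chromosome 17, where PSMB3 lies, the counts were 14 of 44 (31.8%) and 56 of 740 (7.57%). The part of these copies in the PSMB8 and PSMB3 values was not tested. PSMB9 has as many copies as PSMB8, and with 3 Nanopore counts no difference between the libraries was detectable for it. Without the 3 copied members, 24 members were called higher by Illumina and 1 was 4-fold higher.

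The base ATPases, which unfold substrates, had the lowest median log2 ratio in CPM of any role group, -1.19, and 4 of 6 were called higher by Illumina. With Illumina TPM by canonical length the core beta genes had the lowest median, -1.25, and the ATPases had -0.97. PSMC3 had 36 Nanopore counts (89.3 CPM, 64.5 to 124) and 57181 Illumina counts (298 CPM), a log2 ratio of -1.73 with an exact test adjusted p of 4.67e-18. PSMC4 had 14 and 20773 (-1.61), PSMC5 35 and 43868 (-1.39), and PSMC6 25 and 23688 (-0.98). PSMC1 had 40 Nanopore and 25505 Illumina counts, and PSMC2 had 36 and 24153. Neither was called, with ratios of -0.42 and -0.49. PSMC3 was the highest ATPase by Illumina in CPM and per length, and PSMC1 had the most Nanopore counts, although the Nanopore intervals of PSMC1, PSMC2, PSMC3, PSMC5 and PSMC6 overlapped.

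Of the 14 non-ATPase genes 8 were called higher by Illumina, with a median of -0.77. PSMD2, a scaffold of the base that binds ubiquitin-like proteins, had 69 Nanopore counts (171 CPM, 135 to 216) and 100025 Illumina counts, the most of any member (522 CPM), with a log2 ratio of -1.60 and an exact test adjusted p of 3.10e-28. PSMD1, the other large scaffold, had 29 and 43815 (-1.65). The PSMD1 call was lost with Illumina TPM by canonical and mean transcript length (exact test adjusted p = 0.0673 and 0.134). By union exonic length it turned to higher by Nanopore (0.86, exact test adjusted p = 0.0101). PSMD4, a ubiquitin receptor, had 46 and 52178 (-1.25), and PSMD14, the deubiquitinase of the lid, had 40 and 34908 (-0.87). The lid genes PSMD11, PSMD12 and PSMD13 were also called, with ratios of -1.36, -1.40 and -1.16. The calls of PSMD11 and PSMD12 were lost by canonical and union length, that of PSMD13 by union length. That of PSMD14 was lost by union and mean length. PSMD7, a lid gene that pairs with PSMD14, was called at -0.47, with an exact test adjusted p of 0.0377, a call lost with TMM (0.110), median-ratio scaling (0.165) and TPM by canonical length (0.0965). PSMD3, PSMD6 and PSMD8 of the lid were not called, with ratios from -0.43 to -0.37. The assembly factors of the base in this family were not called: PSMD5 had 15 and 9849 counts, PSMD9 had 23 and 13413, and PSMD10 had 12 and 9165. PSMD8, with 71 Nanopore counts (176 CPM, 140 to 222), and PSMD2 had the most of the 14 and did not differ beyond counting error.

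Among the activators and the inhibitor 4 of 5 were called higher by Illumina. PSME1 and PSME2 together form an interferon-inducible ring that opens the core. PSME1 had 44 Nanopore counts (109 CPM, 81.3 to 146) and 19781 Illumina counts (103 CPM), with no detectable difference, while PSME2 had 40 (99.2 CPM, 72.9 to 135) and 29352 (153 CPM), a log2 ratio of -0.62. PSME3, which forms a nuclear ring of the same family, had 41 and 37391 (-0.93). PSME4, a large single-chain activator, had 13 Nanopore counts (32.2 CPM, 18.8 to 55.2) and 28241 Illumina counts (147 CPM), a log2 ratio of -2.16 with an exact test adjusted p of 6.76e-12. PSMF1, known as a proteasome inhibitor, had 24 and 19402 (-0.76). PSME4 and PSMF1 have the longest canonical transcripts of all members, 7250 and 8154 bases.

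The chaperones PSMG1 to PSMG4 assist assembly of the alpha ring. PSMG1 had 22 Nanopore and 13283 Illumina counts, PSMG2 had 31 and 12786, and PSMG4 had 6 and 3146. None of these was called, and PSMG2 had the highest ratio of the group, 0.20. PSMG3 had 6 counts by Nanopore and 6991 by Illumina, which gave a log2 ratio of -1.24 with an exact test adjusted p of 0.0402, lost with TMM (0.0663) and median-ratio scaling (0.0824).

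Fragmented libraries give more reads to longer transcripts, whereas a direct RNA read is 1 strand, so the ratios were also set against Illumina TPM, counts divided by transcript length and then scaled to 1000000, by the length of the Ensembl canonical transcript. On this scale 5 members were called higher by Nanopore (33.2% of 11690 tested genes were) and 24 higher by Illumina (11.2% were). By union exonic length these counts were 12 and 17, and by mean transcript length 3 and 26. The shares of all tested genes called by these 2 lengths were not computed. The median ratio of all tested genes was 0.40 by union and 0.065 by mean length. By canonical length at 4-fold there were 0 by Nanopore (16.3% of all) and 2 by Illumina, PSMB8 and PSMB3 (3.4% of all). The members' median was -0.60 and that of all tested genes 0.49 (0.40 for protein-coding ones). The members' canonical transcripts were shorter, with a median of 1494 bases, against 2882 for all tested genes and 3287 for protein-coding ones. Both scales vary with length, so these comparisons set shorter genes against longer ones. The 5 called higher by Nanopore were PSMA4, PSMA5, PSMB2, PSMC1 and PSMF1, whose canonical transcripts span 3815 to 8154 bases. PSMF1 went from a log2 ratio of -0.76 in CPM to 1.58, and PSME4 from -2.16 to 0.03. PSMB3, with the shortest canonical transcript of all members, 762 bases, went from -1.77 to -2.79 (exact test adjusted p = 1.01e-45).

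The direction of some members depended on which length was used, PSMA2 above among them. PSMA4 had a ratio of 1.19 by canonical length, 1.07 by union exonic length and -0.42 by mean transcript length, and PSMA5 had 0.89, 0.67 and -0.08. Over the 3 lengths 22 members stayed below 0 and 4 above 0. By canonical length 7 of the 26 calls in CPM were lost, those of PSMC6, PSMD1, PSMD7, PSMD11, PSMD12, PSME3 and PSME4. Those of PSMB2 and PSMF1 turned to higher by Nanopore. By union length 9 were lost, those of PSMB2, PSMC6, PSMD11, PSMD12, PSMD13, PSMD14, PSME2, PSME3 and PSME4. Those of PSMA2, PSMD1 and PSMF1 turned. By mean length those of PSMD1, PSMD14 and PSMF1 were lost, and those of PSMA2 and PSMB2 turned. The members called higher by Illumina in CPM, under both other scalings and by all 3 lengths were 11: PSMA1, PSMB3, PSMB4, PSMB5, PSMB6, PSMB8, PSMC3, PSMC4, PSMC5, PSMD2 and PSMD4. In CPM the 16 shortest members (762 to 1124 bases) had a median log2 ratio of -0.28, the middle 15 (1195 to 2147) -0.67 and the longest 15 (2163 to 8154) -0.76. By TPM the same groups had medians of -1.02, -0.85 and 0.31. For the 14 constitutive core genes, which the complex holds in equal copies, the Spearman correlation between libraries was 0.84 with Illumina CPM and 0.39, 0.16 and 0.037 with TPM by canonical, union and mean transcript length, a description across genes.

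**Figure D3:**
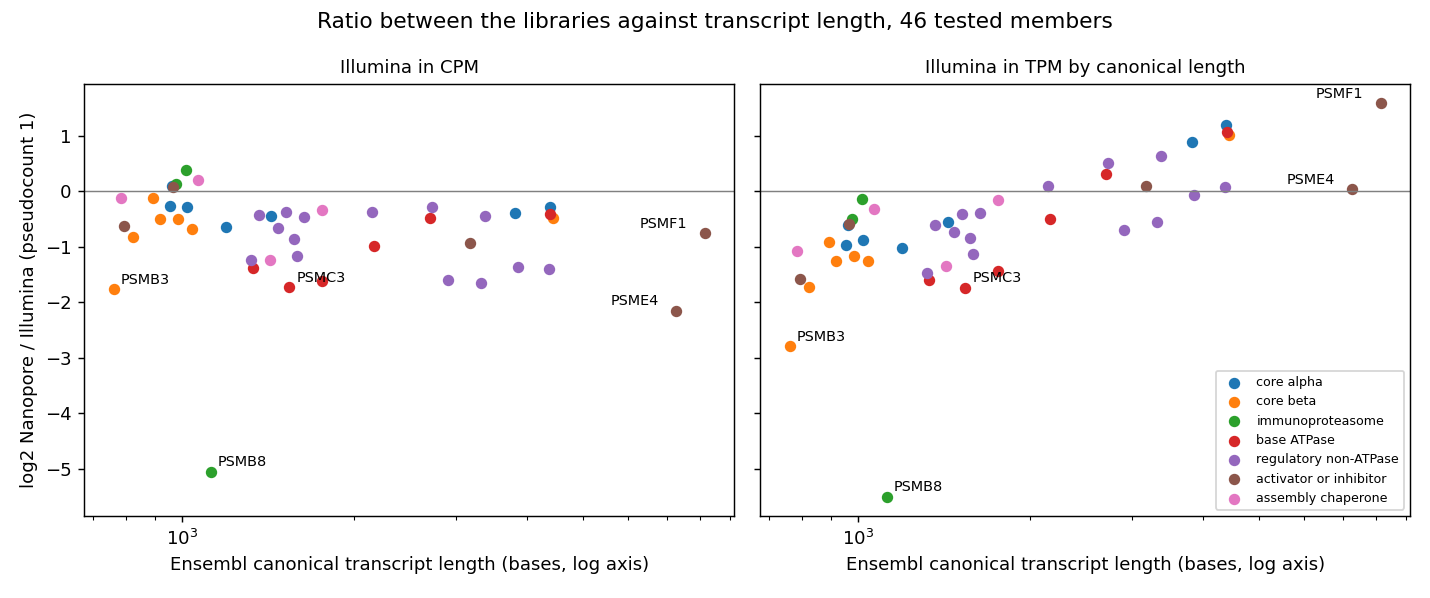
Log2 ratio of Nanopore to Illumina (pseudocount 1) against canonical transcript length (bases, log axis) for the 46 tested proteasome genes, coloured by role, with Illumina in CPM on the left and in TPM on the right. PSMF1 moves from -0.76 to 1.58 and PSMB3 from -1.77 to -2.79 between the panels.

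Exons of 22 members share bases with another annotated gene, and several of those genes had almost the same number of Nanopore counts as the member. PSMD6 had 29 Nanopore counts, and its opposite-strand genes PSMD6-AS1 and PSMD6-AS2 had 28 and 29. By Illumina PSMD6 had 18602 counts and these had 7 and 190. PSMD7 and the opposite-strand ENSG00000259972 had 50 Nanopore counts each, against 33087 and 9254 by Illumina. PSMC2 had 36 Nanopore counts and the opposite-strand SLC26A5, which encodes prestin of cochlear outer hair cells, had 32, while Illumina gave SLC26A5 0 counts. PSMC1 had 40 and NRDE2 43 Nanopore counts, and PSMC5 had 35 and FTSJ3 32. A read counted for both genes of a pair and separate reads from each cannot be told apart in gene counts, and the use of strand in counting is not given in the sources used here.

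**Figure D4:**
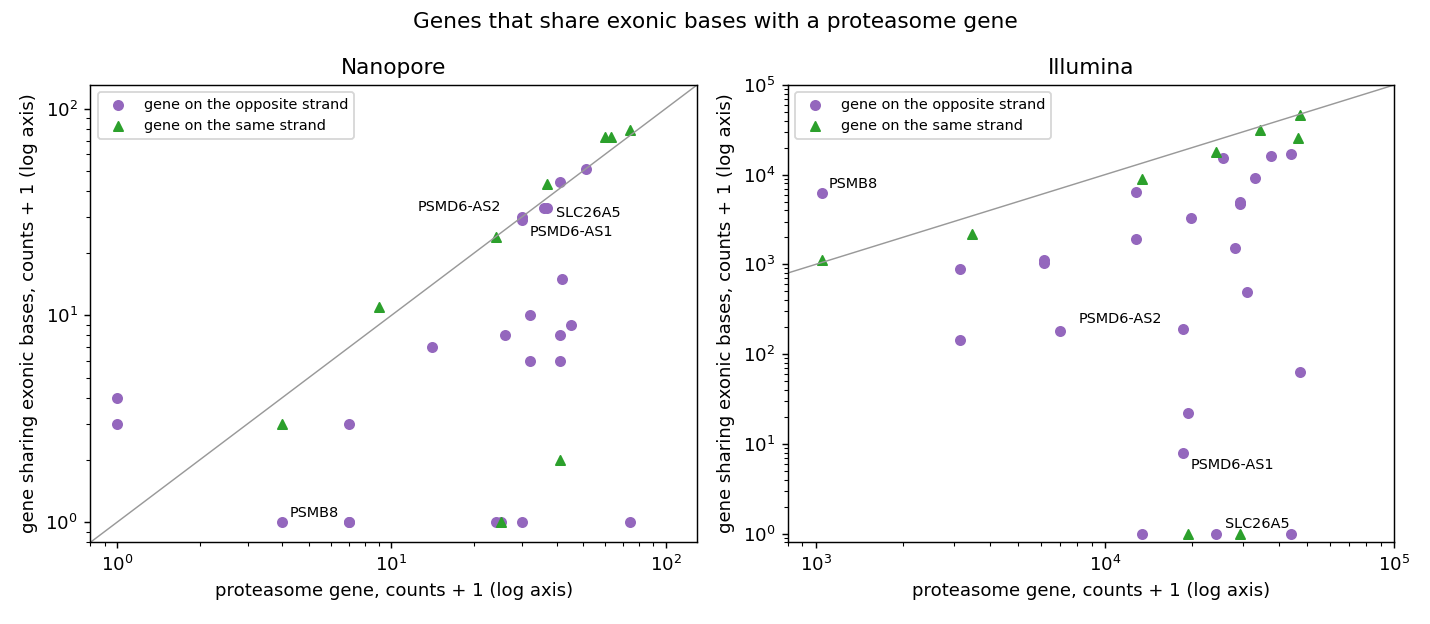
Counts plus 1 (log axes) of each gene that shares exonic bases with a proteasome gene against the counts of that proteasome gene, by library; circles are genes on the opposite strand, triangles genes on the same strand, and the line marks equal counts. PSMD6-AS1, PSMD6-AS2 and SLC26A5 lie near the line by Nanopore (28, 29 and 32 counts) and far below it by Illumina (7, 190 and 0).

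Of 24 opposite-strand pairs in the tables, with PSMB8 and PSMB9 entered once from each side, 17 had Nanopore counts for the overlapping gene, and in 4 of them that gene was at least 4-fold higher by Nanopore than by Illumina. The fourth was ENSG00000279762 at PSMD11, with 7 Nanopore and 491 Illumina counts. Of 9 same-strand pairs 8 had Nanopore counts and 0 reached 4-fold. Same-strand partners with similar Nanopore counts were ENSG00000256206 at PSMA1 (72 against 62), ENSG00000256646 at PSMA2 (78 against 73), ENSG00000258790 at PSMA6 (72 against 59), ENSG00000261884 at PSMB10 (10 against 8), ENSG00000256950 at PSMD9 (23 and 23) and PMPCB at PSMC2 (42 against 36). By Illumina these partners had 55.8%, 98.9%, 91.1%, 62.7%, 67.1% and 74.3% of the member's counts, in the same order. ENSG00000256646 contains every 50-base word of the PSMA2 canonical transcript, so the split of reads between these 2 is uncertain. The 24 tested members with no exon overlap had a median log2 ratio of -0.59, and 14 (58.3%) were called higher by Illumina. Of the 22 with exon overlap, 54.5% were called. All tested genes without exon overlap had a median of -0.67, so here the members lay above the median of all. In the full set they lay below it. The share of all genes without exon overlap that was called was not computed.

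Some members share sequence with genes elsewhere in the genome, which makes their counts less certain. The share of the canonical transcript's 50-base words found in genes at other loci was 30.1% for PSMC1, 25% for PSMC6, 24.7% for PSMA6, 23.4% for PSMD4, 19.8% for PSME2 and 10.4% for PSMD2. The 44 proteasome pseudogenes together held 7 Nanopore and 6710 Illumina counts. One of them, PSMC1P1, passed the minimum level, with 4 and 5355 counts.

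Among genes that act with the proteasome, 12 associated genes had a median log2 ratio of -0.55, with 1 called higher by Nanopore and 4 by Illumina. POMP, which chaperones beta-ring assembly, had 111 Nanopore and 49771 Illumina counts (0.08), close to the ratio of PSMA7. SEM1, a small lid subunit outside the PSM names, had 55 and 47127 (-0.84), and ADRM1, a ubiquitin receptor, had 25 and 22380 (-0.90). Of 18 ubiquitin and delivery genes 11 were called higher by Illumina, and the median was -1.02. RPS27A, which encodes ubiquitin fused to a ribosomal protein, was called higher by Nanopore (792 and 291225). Of 9 genes linked to interferon and antigen presentation 7 were tested. ERAP1, a peptide-trimming enzyme, was 4-fold higher by Nanopore (45 and 2546), and TAP1, TAP2 and TAPBP were 4-fold higher by Illumina. B2M, the light chain of class I molecules, had 318 and 130301.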

How the data were processed

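The authors deposited raw whole-number counts per gene for 1 Nanopore and 1 Illumina library. Per the submitters' processing notes, minimap2 2.11-r797, HISAT2 2.1.0, featureCounts and the build hg38 were used, with no role given for each. Options, annotation, strand use and handling of overlapping or multiply mapped reads are not given in the sources used here. Of 58735 identifiers 58207 were in GENCODE 44, which gave names, positions and lengths. From the deposited counts, CPM, Illumina TPM, ratios and exact binomial tests were computed (Python 3.11.15, SciPy 1.17.1), with a pseudocount of 1 CPM and a minimum mean of 5 CPM. The test code was tested on simulated data. Intervals are 95%, and reads are not independent molecules, so they cover counting error only. With 1 library per platform no quasi-likelihood model could be fitted, and edgeR 4.0.16 served only for TMM scaling. Alternate-contig copies were aligned with minimap2 2.31 (at least 80% of the transcript aligned, at most 5% divergence), for members and tested genes of chromosomes 6 and 17. Genes were named by role group: highest, lowest, 4-fold calls, catalytic subunits, and members with overlapping genes. The other members were named as well. The members and lists were chosen with earlier results of these data known. Leaving out members with alternate-contig copies was chosen after seeing the data. Some genes of the other lists are not reported here.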

Additional observations from a re-analysis of the deposited data

How the results depend on the processing

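No paired analysis was possible because each platform has 1 library, and leaving out a replicate or running DESeq2 was not possible for the same reason. Of 77 alternative values of these counts, medians and shares 46 stayed within the tolerance and 31 did not. The tolerance was 1.5 times for counts, 0.065 on the log2 scale for medians and the counting interval for shares. Reversal was defined for the members' median only. That median kept its sign in every setting, although the ratios of single members changed sign. Members called higher by Nanopore went from 0 to 5 (TPM by canonical length), 12 (union exonic length), 3 (mean transcript length) and 1 (mean CPM of at least 1, and no filter). The last is PSMA8, untested in the main setting, and its call rests on 1 Nanopore count against 0 by Illumina. Members called higher by Illumina went from 26 to 17 by union exonic length, 10 without genes whose bodies overlap and 14 without genes whose exons overlap, the last 2 because fewer members were tested. The 4-fold count by Nanopore went from 0 to 1 by union exonic length. The 4-fold count by Illumina went from 2 to 1 with a mean of at least 20 CPM, to 0 without body overlap, to 0 without exon overlap and to 1 without members with alternate-contig copies, since these remove PSMB8, PSME4 or both. The median log2 ratio went from -0.50 to -0.42 (TMM), -0.38 (median ratio), -0.60 (canonical length), -0.23 (union length), -0.61 (mean transcript length), -0.59 (no exon overlap) and -0.44 (no mitochondrial genes). All tested genes had medians of -0.32, -0.28, 0.49, 0.40, 0.065, -0.67 and -0.34 in these settings, in the same order. Median-ratio scaling moved all ratios by 0.13 and TMM by 0.088. The proteasome share by Nanopore went from 0.483% to 0.537% without mitochondrial genes and 0.794% without exon overlap, and by Illumina from 0.793% to 0.841%, 1.19%, 0.842% (TPM, canonical) and 0.680% (TPM, union). The immunoproteasome share by Nanopore went from 5.39% to 10.7% without PSMB8, PSMB9 and their partners, and by Illumina from 6.12% to 7.15% in that setting, 6.81% (plain counts), 4.36% (union) and 4.47% (mean transcript length). Where no reason is given, the cause was not tested. At the Nanopore depth, 0 counts cannot tell an absent gene from one under the 3-count level of 7.44 CPM.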
